A study of Mus musculus with 30 samples.

Results

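The 10 genes described here encode ligands and receptors of the tumor necrosis factor (TNF) superfamily, and they were taken by name, as the ligands *Tnf*, *Tnfsf9* and *Tnfsf12* and the receptors *Tnfrsf1a*, *Tnfrsf1b*, *Tnfrsf12a*, *Fas*, *Tnfrsf21*, *Ltbr* and *Tnfrsf11b*, out of 28586 genes listed in either RNA fraction of the study. Mice underwent intestinal manipulation (IM), an abdominal surgery model of post-operative ileus, and the *muscularis externa* (*ME*), the muscle coat of the small bowel that holds the enteric ganglia, was taken after 3 h, 24 h or 72 h (IM3h, IM24h, IM72h) or from naïve mice without surgery. Total *ME* RNA was sequenced beside *RiboTag* mRNA, which is precipitated from the same kind of tissue because cells with Cre activity carry HA-tagged RPL22 in their ribosomes. The sample titles call the *ME* libraries inputs, and the study's methods take an input from the lysate used for precipitation. The fractions may thus share animals, which the comparisons between fractions took as independent. By the labels all *RiboTag* libraries came from B6 mice with Tg(Sox10-icre/ERT2)388Wdr/J, which had been crossed to the tag line B6N.129 Rpl22tm1.1Psam/J, and their tamoxifen-dependent Cre is driven by *Sox10* in glia. The study's methods add a tdTomato reporter to this line. The *ME* libraries of naïve mice and of IM3h are labelled with a *Gfap*-cre line, B6.Cg-Tg73.12Mvs/J, crossed to the same *Rpl22* line, and those of IM24h and IM72h with the *Sox10* line, so that by the labels line and time cannot be told apart in the *ME* at these later times. The study's methods name no *Gfap*-cre mouse line and give the *Sox10* line for the tagged mice, and the labels were followed here. The tables hold 3, 4, 4 and 4 *RiboTag* libraries and 3, 3, 4 and 4 *ME* libraries in the order naïve, IM3h, IM24h and IM72h.

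TNF superfamily ligands are mostly trimeric proteins on the surface of cells or shed from it, and they act by clustering their receptors. Receptors with a death domain, such as TNFR1, FAS and DR6, can recruit adaptors of cell death, whereas TNFR2, FN14 and the lymphotoxin beta receptor bind TRAF proteins and lead to NF-κB. In an inflamed gut wall TNF is known chiefly as a product of macrophages and other leukocytes, and reactive glia are known to carry several of its family's receptors.

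The stretches of DNA just before the start of the 4 genes that the results turn on are shown first, as the letters read from RefSeq on GRCm38.p6, each 250 bases up to the start site, 5′ to 3′ on the gene's own strand. Capitals mark the matches of a search on both strands for AP-1 (TGANTCA), CRE (TGACGTCA), a TATA box (TATAAA) and the κB motif.
*Tnfrsf12a*, chr17:23677450-23677699, minus strand: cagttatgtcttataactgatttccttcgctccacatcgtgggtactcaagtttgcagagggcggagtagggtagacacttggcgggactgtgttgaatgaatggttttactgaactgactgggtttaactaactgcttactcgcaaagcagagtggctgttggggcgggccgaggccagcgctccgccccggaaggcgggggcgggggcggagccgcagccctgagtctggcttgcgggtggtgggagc
*Fas*, chr19:34290409-34290658, plus strand: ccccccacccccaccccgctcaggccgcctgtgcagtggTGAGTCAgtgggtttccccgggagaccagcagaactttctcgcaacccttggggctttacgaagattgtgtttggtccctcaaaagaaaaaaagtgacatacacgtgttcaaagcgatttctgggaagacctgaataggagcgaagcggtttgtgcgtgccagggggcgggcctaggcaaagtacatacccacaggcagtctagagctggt
*Ltbr*, chr6:125313886-125314135, minus strand: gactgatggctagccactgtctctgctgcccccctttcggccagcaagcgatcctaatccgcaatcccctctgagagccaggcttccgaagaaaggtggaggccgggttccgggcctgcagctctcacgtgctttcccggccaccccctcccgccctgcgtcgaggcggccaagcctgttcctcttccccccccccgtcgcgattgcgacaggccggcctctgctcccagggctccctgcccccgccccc
*Tnf*, chr17:35202008-35202257, minus strand: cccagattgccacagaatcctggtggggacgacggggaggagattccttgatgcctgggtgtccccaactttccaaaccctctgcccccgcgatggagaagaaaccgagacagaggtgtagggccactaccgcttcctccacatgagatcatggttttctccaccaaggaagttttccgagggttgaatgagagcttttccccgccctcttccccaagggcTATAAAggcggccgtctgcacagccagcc
The window of *Tnf* held TATAAA from 29 to 24 bases before the start, and that of *Fas* held TGAGTCA, a form of the AP-1 motif, from 211 to 205 bases before it. The windows of *Tnfrsf12a*, *Ltbr*, *Tnfrsf1a*, *Tnfrsf1b* and *Tnfrsf21* held none of the 4 motifs. Among 32851 mouse promoter windows of this length, 6.75% held the AP-1 motif, 1.55% the CRE, 12.4% TATAAA and 7.25% the κB motif. A match is given as a description of the letters. Windows were at hand for 7 of the 10 genes, without *Tnfsf12*, *Tnfsf9* and *Tnfrsf11b*. By the GENCODE annotation on the same build *Tnfsf12* shares its strand with the read-through gene *Tnfsfm13* and lies opposite *Tnfsf13os*, and *Tnfsf9* lies opposite *Gm11110*, so the counts of these ligands are uncertain to the extent that reads could be assigned to a neighbor.

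Library totals were 3010306 to 7899493 estimated counts in the *RiboTag* fraction and 6603170 to 12866062 in the *ME*. A single entry, AY036118, which overlaps ribosomal RNA, took 2.02% to 14.0% of the counts in naïve and IM3h *RiboTag* libraries, 22.2% to 59.2% at IM24h and 58.0% to 80.1% at IM72h. The number of genes with a count was 17262 to 19422 in naïve *RiboTag* libraries and 8814 to 11729 at IM72h. In the *ME* it took 16.1% to 33.5% in naïve mice, 24.1% to 25.1% at IM3h and 1.33% to 6.50% at the later times. The summed level of 8 glial markers was 1573 to 1906 CPM in naïve *RiboTag* libraries against 124 to 147 CPM in naïve *ME*, and the sum in *RiboTag* libraries was 1324 to 2858 CPM at IM3h, 786 to 939 CPM at IM24h and 161 to 1461 CPM at IM72h. The pulldown was not free of other RNA, since 6 smooth muscle markers summed to 4385 to 6688 CPM in naïve *RiboTag* libraries, against 20985 to 21938 CPM in naïve *ME*, and to 1711 to 4011 CPM at IM3h. Neuronal markers, 6 genes, summed to 460 to 1058 CPM in naïve *RiboTag* libraries against 573 to 596 CPM in naïve *ME*. At IM3h they summed to 746 to 1697 CPM in *RiboTag* libraries against 489 to 562 CPM in the *ME*. In bulk RNA, fewer cells of a type and less RNA per cell cannot be told apart. Levels are CPM, counts scaled to a common library size with TMM factors within a fraction, and because the libraries read 3′ ends and the fractions were quantified apart, levels were not compared between genes. A gene is said to have risen or fallen where edgeR's quasi-likelihood test gave a Benjamini-Hochberg adjusted p under 0.05 over all genes tested. Errors of log2 changes were derived from that test, as the absolute change over the square root of its F statistic. They are approximate and are called standard errors here.

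Of the 7 member receptors, *Tnfrsf12a* had the largest log2 change at IM3h in both fractions. In *RiboTag* mRNA at IM3h *Tnfrsf12a* and *Fas* rose and *Ltbr* fell, out of 8 members tested. At this threshold 8.86% of all 16053 genes tested rose and 4.44% fell. DESeq2 called 4 members, and 4 had an unadjusted p under 0.05 together with a change of more than 2-fold, the threshold used in the study, which 20.7% of all genes passed. The members' median log2 change was 0.49 beside −0.04 for all genes. When libraries were scaled by their total or by *Actb*, *Hsp90ab1* and *Rplp1*, the share of upward calls among all genes went from 66.6% to 51.3% or 44.2%, and the direction of these 3 genes stayed.

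In total *ME* RNA at IM3h 7 of 9 members tested rose and none fell, at a background of 19.3% of genes rising and 13.4% falling, and the members' median log2 change was 1.28 beside 0.00 for all genes. At IM24h 7 of 9 rose and 1 fell, at a background of 15.6% and 13.4%, with a median of 1.10 beside 0.02. *Tnf* was among those that rose at both times, and it passed the filter on low counts only through the libraries after IM. At IM72h 4 of 8 rose and 1 fell, at a background of 29.3% and 28.3%, with a median of 0.66 beside 0.02. By the study's threshold 5, 6 and 5 members passed, at a background of 18.5%, 23.4% and 32.8% of genes. The share of upward calls among all genes was 59.0%, 53.9% and 50.9% at the 3 times, 33.9%, 89.7% and 81.2% with scaling by library total, and 22.7%, 28.9% and 20.1% with scaling by *Actb*, *Hsp90ab1* and *Rplp1*, so that calls near the threshold depend on the scaling, as given for each gene. All comparisons of a fraction with naïve mice share that fraction's 3 naïve libraries. p-values measure the spread between these libraries, since the labels do not say how they relate to animals.

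**Figure D1:**
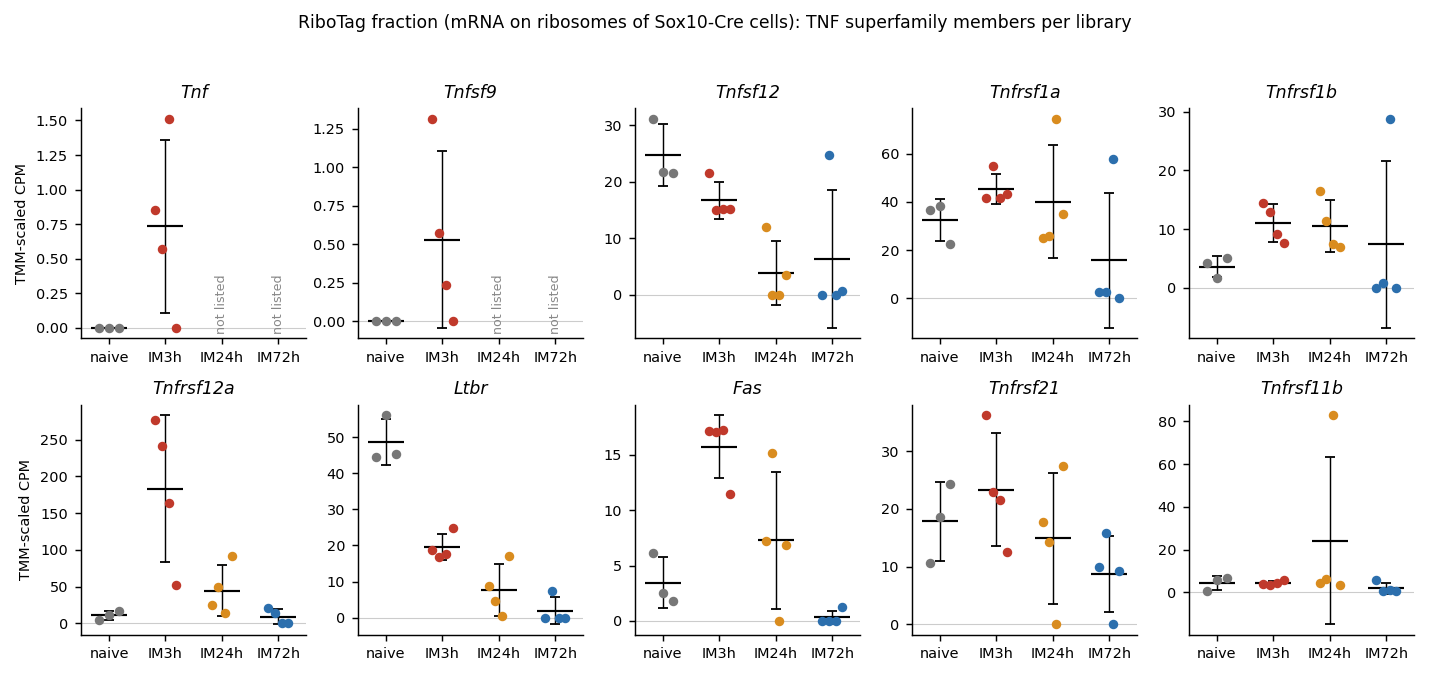
Levels of the 10 genes in *RiboTag* mRNA in CPM, 1 panel per gene and 1 point per library, with the mean as a line and the SD as a bar for naïve mice, IM3h, IM24h and IM72h. All 4 IM3h points of *Tnfrsf12a* (51.9 to 277 CPM) lie above the naïve ones, those of *Ltbr* (16.8 to 25.0 CPM) lie below them, and at IM72h single libraries stand apart from the other 3 for *Tnfrsf1a*, *Tnfrsf1b* and *Tnfsf12*.

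The ligand *Tnf* was close to the detection limit of these libraries. In naïve *ME* it was at 0.121, 0.215 and 0 CPM, at IM3h at 2.25, 1.92 and 3.16 CPM, at IM24h at 1.13, 7.61, 8.29 and 1.26 CPM, and at IM72h at 1.51, 1.73, 0.755 and 0.780 CPM. Every *ME* library after IM lay above every naïve one. The naïve libraries together held 2 counts, so the change is given as a ratio of summed levels with a 95% exact interval, which covers counting error only, and it was 25.6 (6.70 to 217) at IM3h, 49.9 (13.6 to 415) at IM24h and 12.4 (3.29 to 105) at IM72h. In edgeR *Tnf* rose at IM3h (log2 change 4.47 ± 0.76, adjusted p = 0.00153) and at IM24h (5.35 ± 1.202, adjusted p = 0.00812), values that depend on the prior count, and at IM72h it did not pass the filter on low counts. At IM3h and IM24h *Tnf* passed that filter only through the libraries after IM, so these calls are not independent of the filter. Both *ME* IM24h libraries with high *Tnf* were also those with the highest summed neutrophil markers, 147 and 215 CPM against 53.6 and 46.3 CPM in the other two and 0.847 to 1.08 CPM in naïve mice, and with the lowest smooth muscle markers, 2935 and 5274 CPM against 8257 and 10123 CPM. The part of these cells in the *Tnf* level was not tested.

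In *RiboTag* mRNA *Tnf* had no count in the 3 naïve libraries and stood at 0.850, 0.573, 1.51 and 0 CPM at IM3h, a mean at least 2.05-fold higher than the level that 3 counts per naïve library would give. A library without a count thus overlapped the naïve ones, and *Tnf* did not pass the filter in this comparison. Neither *Tnf* nor *Tnfsf9* is listed in the *RiboTag* tables of IM24h and IM72h, which keep only entries with a total of at least 10 counts. The interaction of fraction and IM3h for *Tnf* was 1.46 ± 1.48 on the log2 scale (adjusted p = 0.741).

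*Tnfsf9*, the ligand of the T cell costimulator 4-1BB, had few counts as well. In the *ME* it had 0 to 0.242 CPM in naïve mice, 0 to 0.885 CPM at IM3h, 0 to 1.001 CPM at IM24h and 0.151 to 0.390 CPM at IM72h, and the counting ratios to naïve mice were 3.73 (0.710 to 36.8), 3.94 (0.917 to 35.5) and 2.75 (0.633 to 25.0). All 3 intervals include 1. In *RiboTag* mRNA it had no count in naïve mice and 1.31, 0.573, 0.233 and 0 CPM at IM3h, at least 1.48-fold higher than 3 counts per naïve library. *Tnfsf9* did not pass the filter on low counts in any comparison, so it was not tested gene by gene.

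*Tnfsf12* encodes TWEAK, the ligand of the receptor FN14 that *Tnfrsf12a* encodes. In the *ME* its levels lay close together, with 51.1, 43.9 and 45.5 CPM in naïve mice, 33.0, 40.1 and 43.1 CPM at IM3h, 43.1, 44.5, 43.0 and 56.3 CPM at IM24h and 41.9, 44.3, 41.1 and 42.8 CPM at IM72h. The log2 changes were −0.23 ± 0.13, −0.01 ± 0.16 and −0.17 ± 0.11 (adjusted p = 0.211, 0.977 and 0.188), none of them called. Under the library total the signs at IM24h and IM72h turned and both passed (0.62 and 0.43, adjusted p = 0.0227 and 0.0228), and under *Actb*, *Hsp90ab1* and *Rplp1* *Tnfsf12* was lower at IM3h and IM72h (−0.64 and −0.78, adjusted p = 0.00622 and 0.00161), so its direction in the *ME* depends on the scaling. These scalings shift all genes together. Relative to the median of all genes *Tnfsf12* was at −0.029 and −0.197 with TMM and at −0.033 and −0.195 under the library total at IM24h and IM72h. In *RiboTag* mRNA it was at 31.1, 21.7 and 21.5 CPM in naïve mice and at 21.6, 14.9, 15.1 and 15.1 CPM at IM3h (log2 change −0.51 ± 0.32, adjusted p = 0.353). At IM24h 2 of 4 *RiboTag* libraries had no count of *Tnfsf12* and the others 12.0 and 3.44 CPM, all below naïve mice, and at IM72h the levels were 0, 24.6, 0 and 0.616 CPM. The changes at these times were −2.57 ± 1.33 and −2.01 ± 1.98 (adjusted p = 0.452 and 0.715). The value at IM72h rested on library 2, without which it was −6.80 and passed (adjusted p = 0.0199). That library also had the lowest summed glial markers, 161 CPM against 953 to 1461 CPM in the others, and the highest smooth muscle markers, 6834 CPM against 1872 to 2586 CPM, whose part in its *Tnfsf12* level was not tested.

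The receptor of this pair, *Tnfrsf12a*, an early response gene in injured tissue, stood at 4.07, 12.0 and 16.6 CPM in naïve *RiboTag* libraries and at 277, 242, 164 and 51.9 CPM at IM3h. All libraries at IM3h were above all naïve ones, and the rise was 17.5-fold (log2 change 4.13 ± 0.61, adjusted p = 0.0012). The lowest of the 4, library 4, also had the highest summed glial markers (2858 CPM against 1324 to 1583 CPM in the others) and the lowest *Fas*. Leaving out any single library kept the call, with log2 changes of 3.76 to 4.58, but a fit of all *RiboTag* groups together did not (4.07, adjusted p = 0.285). At IM24h *Tnfrsf12a* was at 24.7, 49.0, 13.7 and 91.1 CPM, overlapping naïve mice (2.08 ± 0.77, adjusted p = 0.233), and at IM72h at 21.4, 14.5, 0.960 and 0 CPM (−0.25 ± 1.81, adjusted p = 0.974).

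The same receptor rose in the *ME* at all 3 times. From 3.63, 2.15 and 7.26 CPM in naïve mice it went to 92.6, 125 and 101 CPM at IM3h, 198, 143, 190 and 93.6 CPM at IM24h and 20.2, 16.2, 23.8 and 11.8 CPM at IM72h, with no overlap with naïve mice at any time. The rises were 23.8-fold (4.57 ± 0.30, adjusted p = 3.26e-06), 34.2-fold (5.10 ± 0.42, adjusted p = 6.42e-05) and 3.85-fold (1.95 ± 0.35, adjusted p = 0.000751). From IM24h to IM72h, both in the *Sox10* line, it fell 8.92-fold (log2 change −3.16 ± 0.28, adjusted p = 3.08e-05). *Tnfrsf12a* and *Fas* belong to the acute gliosis list that the study compiled in part from these libraries, so their rise is not independent evidence about that list. Counts of *Tnfrsf12a* rested almost wholly on the transcript Tnfrsf12a-201, with 98.4% to 100% of its counts in every group.

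The genes whose log2 CPM followed that of *Tnfrsf12a* most closely were named by Pearson's r over all libraries of a fraction. Over 15 *RiboTag* libraries and 17930 genes they were *Azin1* (r = 0.984), a regulator of polyamine synthesis, *Trib1* (0.938) and *Sh3pxd2a* (0.935). Over 14 *ME* libraries and 17919 genes they were *Tomm20* (0.976), *Nip7* (0.974) and *Azin1* (0.970), which was thus among the 3 closest in each fraction. These libraries share group and depth, so r describes them only.

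*Tnfrsf1a* encodes TNFR1, the widely expressed death-domain receptor of TNF. In the *ME* it was at 98.04, 71.5 and 87.0 CPM in naïve mice, 203.9, 185 and 216 CPM at IM3h, 137, 138, 183 and 193 CPM at IM24h and 86.7, 102, 84.7 and 128 CPM at IM72h. It rose 2.43-fold at IM3h (1.28 ± 0.13, adjusted p = 5.36e-05) and 1.89-fold at IM24h (0.92 ± 0.19, adjusted p = 0.00561), the latter without a call under scaling by *Actb*, *Hsp90ab1* and *Rplp1* (0.60, adjusted p = 0.289). By IM72h the groups overlapped (0.20 ± 0.17, adjusted p = 0.328). The change was 0.79 under the library total (adjusted p = 0.00448) and turned to −0.39 under *Actb*, *Hsp90ab1* and *Rplp1*. The fall from IM24h was −0.73 ± 0.18 on the log2 scale (adjusted p = 0.00811), and it lost its call under scaling by *Actb*, *Hsp90ab1* and *Rplp1* (−0.99, adjusted p = 0.0611). In *RiboTag* mRNA *Tnfrsf1a* was at 36.6, 38.3 and 22.4 CPM in naïve mice and at 41.4, 54.7, 41.8 and 43.5 CPM at IM3h. Although the 4 IM3h libraries all lay above the naïve ones, the change of 0.54 ± 0.28 did not pass the test (adjusted p = 0.254). At IM24h the levels were 25.2, 25.8, 74.5 and 35.1 CPM, and at IM72h 2.38, 2.64, 57.6 and 0 CPM, where a single library stood above the others.

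*Tnfrsf1b* encodes TNFR2, the receptor without a death domain that is prominent on leukocytes and inducible elsewhere. It was among the members that rose in the *ME* at all 3 times, from 5.32, 6.89 and 6.17 CPM in naïve mice to 27.5, 34.5 and 16.8 CPM at IM3h, 21.4, 28.5, 31.5 and 28.2 CPM at IM24h and 42.5, 39.2, 41.4 and 24.1 CPM at IM72h. All libraries after IM were above all naïve ones, with log2 changes of 2.16 ± 0.28, 2.16 ± 0.23 and 2.57 ± 0.23 (adjusted p = 0.00025, 0.000204 and 6.4e-06). Between IM24h and IM72h its change did not pass the test (0.39 ± 0.20, adjusted p = 0.149). Over the same times the summed level of 9 macrophage markers in the *ME* was 200 to 208 CPM in naïve mice, 162 to 188 CPM at IM3h, 402 to 587 CPM at IM24h and 1195 to 1481 CPM at IM72h. The sum of 4 monocyte markers was 22.6 to 30.2 CPM in naïve mice, 32.8 to 73.7 CPM at IM3h, 153 to 228 CPM at IM24h and 104 to 150 CPM at IM72h, and neutrophil markers were at 25.1 to 33.8 CPM at IM3h. The part of these cells in the level of *Tnfrsf1b* was not tested.

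In *RiboTag* mRNA *Tnfrsf1b* was at 4.19, 1.58 and 5.10 CPM in naïve mice and at 14.4, 13.0, 9.19 and 7.57 CPM at IM3h. The groups did not overlap, but the change of 1.66 ± 0.57 missed the threshold in edgeR (adjusted p = 0.0785), and it passed in DESeq2 (1.64, adjusted p = 0.0308) and without IM3h library 4 (1.80, adjusted p = 0.0382). At IM24h it was at 16.5, 11.4, 7.54 and 6.87 CPM, again above all naïve libraries (1.57 ± 1.16, adjusted p = 0.652). Macrophage markers in this fraction summed to 93.9 to 174 CPM in naïve mice, 73.1 to 137 CPM at IM3h and 160 to 278 CPM at IM24h, with *Cd68* at 0 in every naïve library. Neutrophil markers summed to 1.24 to 3.18 CPM in naïve mice, 3.53 to 10.7 CPM at IM3h and 7.18 to 49.2 CPM at IM24h, and monocyte markers to 15.5 to 19.1, 6.97 to 19.7 and 33.9 to 65.7 CPM. The part of these cells in the level of *Tnfrsf1b* was not tested.

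**Figure D2:**
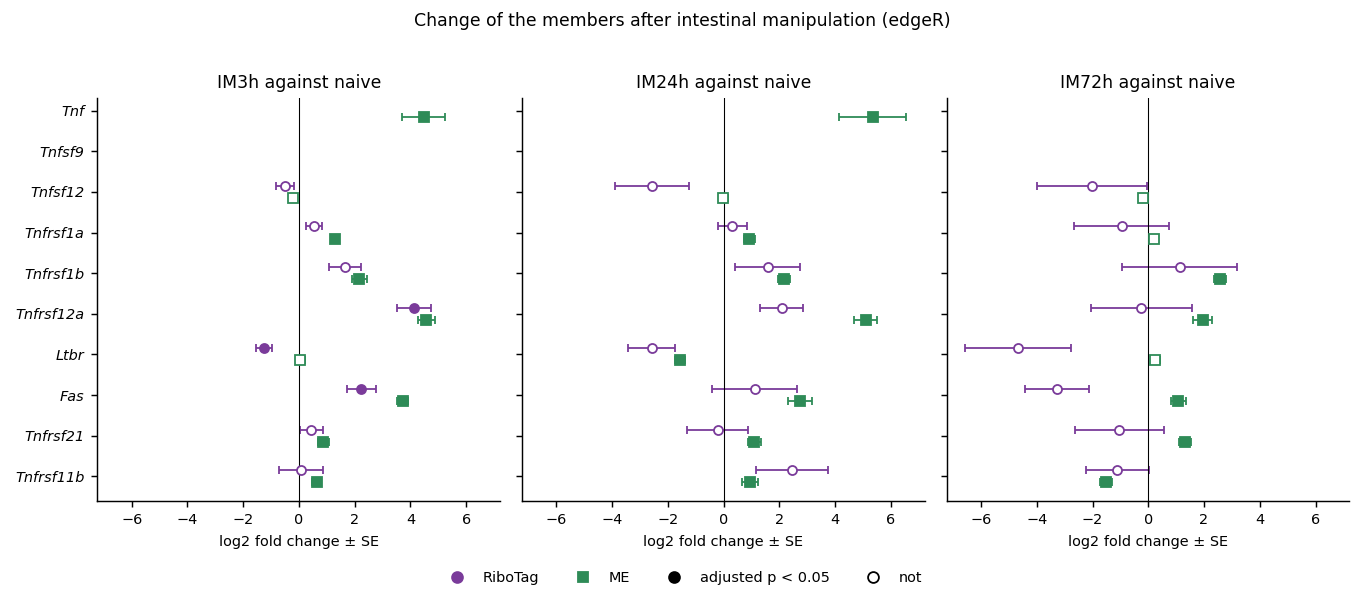
Log2 change against naïve mice of the same fraction for each gene, with the standard error as a bar, at IM3h, IM24h and IM72h; circles are *RiboTag*, squares *ME*, and filled symbols have an adjusted p under 0.05. In *RiboTag* mRNA filled symbols occur at IM3h for *Tnfrsf12a*, *Fas* and *Ltbr*, and in the *ME* at all 3 times for *Tnfrsf12a*, *Tnfrsf1b*, *Fas*, *Tnfrsf21* and *Tnfrsf11b*.

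*Fas* encodes the receptor of FAS ligand, which triggers apoptosis through its death domain. In naïve *RiboTag* libraries it was at 6.10, 2.49 and 1.78 CPM, and at IM3h at 17.2, 17.1, 17.2 and 11.5 CPM. The groups did not overlap, and *Fas* rose 4.73-fold (2.24 ± 0.54, adjusted p = 0.0166). This call was lost without naïve library 2 or 3 or IM3h library 3 (adjusted p = 0.0675, 0.0725 and 0.0525) and under scaling by *Actb*, *Hsp90ab1* and *Rplp1* (2.02, adjusted p = 0.11) and in the fit of all *RiboTag* groups together (2.18, adjusted p = 1), at log2 changes of 1.95 to 2.19 in these fits. At IM24h *Fas* was at 7.18, 15.1, 0 and 6.87 CPM (1.11 ± 1.51, adjusted p = 0.835, with the sign turning under scaling by *Actb*, *Hsp90ab1* and *Rplp1*). At IM72h it had counts in 1 library only, with 0, 0, 0 and 1.23 CPM, all below naïve mice. That level rested on 2 counts against 85, a counting ratio of 11.9-fold lower (3.19 to 99.8), and in edgeR the change of −3.28 ± 1.14 did not pass the test (adjusted p = 0.0863). It passed when libraries were scaled by their total (−4.84, adjusted p = 0.0418) or by *Actb*, *Hsp90ab1* and *Rplp1* (−4.71, adjusted p = 0.0335), and without library 4, the one with counts (−7.04, adjusted p = 0.0268), a value against a group at 0 that depends on the prior count.

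In the *ME* *Fas* rose at all 3 times and was highest at IM3h. Its levels were 4.59, 2.80 and 4.84 CPM in naïve mice, 55.5, 50.9 and 54.2 CPM at IM3h, 19.8, 48.0, 28.1 and 14.6 CPM at IM24h and 12.3, 8.58, 8.001 and 7.28 CPM at IM72h. At each time all libraries were above naïve mice, by 13.1-fold (3.71 ± 0.19, adjusted p = 7.93e-07), 6.60-fold (2.72 ± 0.43, adjusted p = 0.00138) and 2.11-fold (1.07 ± 0.27, adjusted p = 0.00504), the last without a call when scaled by *Actb*, *Hsp90ab1* and *Rplp1* (0.44, adjusted p = 0.175). From IM24h to IM72h *Fas* fell by 1.65 ± 0.35 on the log2 scale (adjusted p = 0.00337). Neutrophil markers in the *ME* summed to 0.847 to 1.08, 25.1 to 33.8, 46.3 to 215 and 20.1 to 57.7 CPM in naïve mice and at the 3 times. At IM24h library 2, with the highest *Fas*, had the lowest smooth muscle markers (2935 CPM), and library 4, with the lowest *Fas*, the highest (10123 CPM). The part of these cells in *Fas* was not tested.

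The authors' software divided the *Fas* counts, reads of 3′ ends, among 4 annotated transcripts, of which Fas-204 held 0.100% to 0.524% of the counts of an *ME* group, and the division varied widely between libraries of a group. The share of Fas-201 in *RiboTag* counts was 7.03% to 7.04% in the naïve libraries and 43.2%, 7.03%, 83.3% and 7.03% at IM3h. In the *ME* it was 55.5%, 5.95% and 4.46% in naïve mice, 39.4% to 64.9% at IM3h, 5.55% to 61.1% at IM24h and 5.36% to 22.0% at IM72h. The groups thus overlapped in both fractions, and no difference between them is drawn from these shares.

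*Tnfrsf21* encodes DR6, a death-domain receptor known from neurons and oligodendrocyte precursors. It rose in the *ME* at all 3 times, with 13.3, 8.18 and 13.0 CPM in naïve mice, 18.6, 21.8 and 21.4 CPM at IM3h, 20.3, 28.5, 27.5 and 23.7 CPM at IM24h and 32.7, 31.7, 33.8 and 21.3 CPM at IM72h. The log2 changes were 0.87 ± 0.20, 1.10 ± 0.24 and 1.32 ± 0.21 (adjusted p = 0.00864, 0.00687 and 0.000316), with no overlap with naïve mice. The call at IM3h was lost under both other scalings (0.60 and 0.45, adjusted p = 0.0962 and 0.134) and that at IM24h under *Actb*, *Hsp90ab1* and *Rplp1* (0.72, adjusted p = 0.182). In the *ME* summed glial markers were at 124 to 147 CPM in naïve mice, 132 to 149 CPM at IM3h, 106 to 143 CPM at IM24h and 162 to 313 CPM at IM72h. The IM72h library with the lowest *Tnfrsf21*, library 4, also had the lowest glial sum of its group and the highest smooth muscle sum, and the part of these cells in *Tnfrsf21* was not tested. In *RiboTag* mRNA its 10.55, 18.6 and 24.3 CPM in naïve mice overlapped with 36.2, 22.9, 21.6 and 12.6 CPM at IM3h (0.45 ± 0.41, adjusted p = 0.558), and with the levels at IM24h (0 to 27.5 CPM) and IM72h (0 to 15.8 CPM). The part of neuronal RNA in the *RiboTag* level of *Tnfrsf21* was not tested.

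*Ltbr*, the receptor of lymphotoxin and LIGHT that signals to non-canonical NF-κB, fell in *RiboTag* mRNA at IM3h and in the *ME* at IM24h. In *RiboTag* mRNA it was at 44.5, 56.1 and 45.4 CPM in naïve mice, 18.9, 16.8, 17.7 and 25.0 CPM at IM3h, 8.69, 4.50, 0.443 and 17.2 CPM at IM24h and 0, 7.48, 0 and 0 CPM at IM72h. All libraries after IM lay below all naïve ones. The fall at IM3h was 2.39-fold (log2 change −1.26 ± 0.27, adjusted p = 0.0103) and lost its call without naïve library 2 (−1.12, adjusted p = 0.0566) and in the fit of all *RiboTag* groups together (−1.31, adjusted p = 1). At IM24h the change was −2.58 ± 0.84 (adjusted p = 0.173; in DESeq2 −2.72, adjusted p = 0.0253) and at IM72h −4.68 ± 1.89 (adjusted p = 0.156; in DESeq2 −4.76, adjusted p = 0.0395). The change at IM72h also passed when libraries were scaled by their total (−6.19, adjusted p = 0.0476) or by *Actb*, *Hsp90ab1* and *Rplp1* (−6.28, adjusted p = 0.0338). It was −10.94 (adjusted p = 0.019) without library 2, which held all counts of *Ltbr* at that time and is the one with low glial and high smooth muscle markers. The last value, against a group at 0, depends on the prior count. At IM3h in this fraction, fibroblast markers went from 975 to 1241 CPM to 363 to 515 CPM and mesothelial markers from 111 to 288 CPM to 10.8 to 73.2 CPM, beside the smooth muscle markers given above. Their part in the fall of *Ltbr* was not tested.

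In the *ME* *Ltbr* was at 154, 107 and 123 CPM in naïve mice and at 132, 104 and 147 CPM at IM3h (0.05 ± 0.16, adjusted p = 0.852, with the sign turning under both other scalings), at 43.4, 39.7, 39.3 and 52.5 CPM at IM24h, and at 134, 163, 144 and 182 CPM at IM72h. It fell 2.93-fold at IM24h (−1.55 ± 0.18, adjusted p = 0.000292) and was 3.48-fold higher at IM72h than at IM24h (1.80 ± 0.15, adjusted p = 2.73e-05), where the groups did not overlap. At IM72h its levels overlapped those of naïve mice (0.25 ± 0.15, adjusted p = 0.174). The change was 0.84 under the library total (adjusted p = 0.00211) and turned to −0.34 under *Actb*, *Hsp90ab1* and *Rplp1*. Smooth muscle markers in the *ME* were at 20985 to 21938 CPM in naïve mice, 2935 to 10123 CPM at IM24h and 11207 to 19621 CPM at IM72h, and their part in the course of *Ltbr* was not tested.

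**Figure D3:**
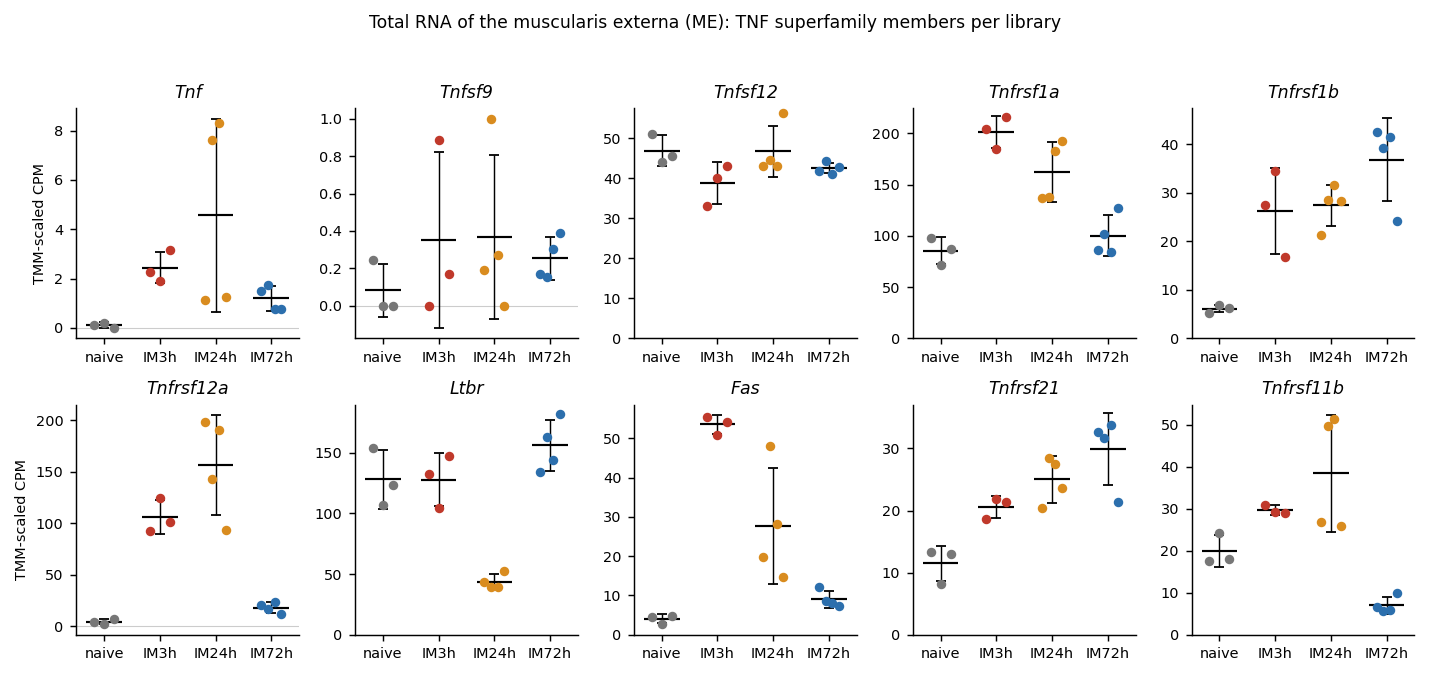
Levels of the 10 genes in total *ME* RNA in CPM, 1 panel per gene and 1 point per library, with the mean as a line and the SD as a bar for naïve mice, IM3h, IM24h and IM72h. *Ltbr* dips at IM24h alone (39.3 to 52.5 CPM), *Tnfrsf12a* has its highest mean at IM24h, where it overlaps IM3h, *Fas* at IM3h, *Tnfrsf1b* and *Tnfrsf21* have their highest means at IM72h, and *Tnfrsf11b* is below naïve mice at IM72h (5.57 to 10.01 CPM).

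*Tnfrsf11b* encodes osteoprotegerin, a secreted decoy receptor that binds RANKL and TRAIL. In the *ME* it was at 17.5, 24.3 and 18.04 CPM in naïve mice, 31.0, 29.2 and 28.9 CPM at IM3h, 26.8, 49.7, 51.4 and 25.8 CPM at IM24h and 6.56, 5.57, 5.89 and 10.01 CPM at IM72h. It thus stood above naïve mice in every library at IM3h and IM24h and below them in every library at IM72h. At IM24h it was higher in libraries 2 and 3, those with the highest neutrophil markers (147 and 215 CPM) and the lowest smooth muscle markers (2935 and 5274 CPM). The part of these cells in *Tnfrsf11b* was not tested. The early rises were small (0.63 ± 0.17, adjusted p = 0.017, and 0.95 ± 0.29, adjusted p = 0.0312) and were lost under scaling by *Actb*, *Hsp90ab1* and *Rplp1* (adjusted p = 0.244 and 0.265), and that at IM3h also under scaling by library total (0.39, adjusted p = 0.103) and in the fit of all *ME* groups together (0.58, adjusted p = 0.168). Without naïve library 1 or 3 the adjusted p was 0.0947 and 0.0928 at IM3h, and leaving out any naïve library or IM24h library 2 or 3 gave an adjusted p of 0.0567 to 0.129 at IM24h. The fall at IM72h was 2.87-fold (−1.52 ± 0.23, adjusted p = 0.000202), and against IM24h it was −2.49 ± 0.30 on the log2 scale (adjusted p = 0.000141), and these calls held without any single library. In *RiboTag* mRNA it was rare, with 0.762, 5.76 and 6.52 CPM in naïve mice and 3.86, 3.53, 4.19 and 5.98 CPM at IM3h (0.07 ± 0.80, adjusted p = 0.972, with the sign turning under both other scalings). At IM24h 1 of 4 *RiboTag* libraries held 82.9 CPM and the others 3.44 to 6.13 CPM, and in that library, number 3, AY036118 took 58.1% of the counts.

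In the later *RiboTag* libraries no member passed in the fit with TMM scaling and all libraries. At IM24h 0 of 8 members passed in edgeR, where 0.497% of all genes did, 2 had an unadjusted p under 0.05 and DESeq2 called 1. At IM72h 0 of 8 passed, where 16.1% of all genes did, 2 had an unadjusted p under 0.05 and DESeq2 called 1. By the study's threshold, 2 members passed at each time (*Tnfrsf12a* and *Ltbr* at IM24h, *Ltbr* and *Fas* at IM72h), at a background of 12.5% and 22.5% of genes. Between IM24h and IM3h 0 of 8 passed at a background of 1.90%, 2 had an unadjusted p under 0.05, and DESeq2 called 1, *Tnfrsf12a*, which edgeR gave as −1.96 ± 0.59 (adjusted p = 0.113) and, without the filter on low counts, as −2.03 (adjusted p = 0.041). Without both IM24h libraries with the largest shares of AY036118 (58.1% and 59.2%), a choice made after the data were seen, 0 members passed at IM24h, *Tnfrsf12a* stood at 2.43 (adjusted p = 0.104) and *Tnfrsf11b* at −0.13 in place of 2.45.

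Between IM72h and IM24h in the *ME* 1 member rose and 5 fell of 9 tested, at a background of 18.6% and 19.9% of genes. *Ltbr* was the one that rose. *Tnf* also fell (−1.97 ± 0.70, adjusted p = 0.0439), a call that was lost without IM24h library 2 or 3 or any library of IM72h (adjusted p = 0.0687 to 0.133) and without the filter on low counts (−1.91, adjusted p = 0.0559). *Tnfsf12*, *Tnfrsf1b* and *Tnfrsf21* did not pass. *Tnfrsf1b* passed without IM72h library 4 (0.56, adjusted p = 0.0254).

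The fractions were then set against each other. In naïve mice 2 of 8 members tested were lower in *RiboTag* mRNA than in the *ME* and none was higher, at a background of 12.7% of genes lower. *Tnfrsf1a* was 2.06-fold lower (−1.04 ± 0.24, adjusted p = 0.0133) and *Ltbr* 2.06-fold lower (−1.04 ± 0.19, adjusted p = 0.00511). Both calls were lost under *Actb*, *Hsp90ab1* and *Rplp1* at changes of similar size (−0.97 and −0.93, adjusted p = 0.0663 and 0.0715). They were also lost under the library total, where the changes were −0.33 and −0.31 (adjusted p = 0.388 and 0.352). The fit of all groups together lost them too (−1.14 and −1.14, adjusted p = 0.724 and 0.713), and leaving out *ME* library 1 lost that of *Tnfrsf1a* (adjusted p = 0.0618). *Tnfrsf12a* was 3.13-fold higher in *RiboTag* mRNA without passing the test (1.64 ± 0.62, adjusted p = 0.0805). It passed without *RiboTag* library 1 (1.99, adjusted p = 0.0179), in DESeq2 (1.65, adjusted p = 0.0413) and under the library total (2.36, adjusted p = 0.02). *Tnfrsf11b* was 3.57-fold lower without passing (−1.83 ± 0.61, adjusted p = 0.0546). It passed in DESeq2 (−1.85, adjusted p = 0.0141), without the filter on low counts (−1.90, adjusted p = 0.0458) and without *RiboTag* library 1 (−1.38, adjusted p = 0.0109). Without that library *Tnfsf12* was also called lower (−0.81, adjusted p = 0.0131) and *Tnfrsf21* higher (1.203, adjusted p = 0.0178). *Tnfrsf21* passed under the library total as well (1.70, adjusted p = 0.0113). By the labels the fractions also differ in Cre line here, in which case line and fraction cannot be told apart, whereas the study's methods name no *Gfap*-cre mouse line.

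Whether the response to IM differed between fractions was tested as an interaction. By the labels the *ME* libraries change line between IM3h and IM24h, while the *RiboTag* libraries keep theirs. A difference between lines thus cannot be told apart from the interactions at IM24h and IM72h, nor line from fraction at IM3h. The study's methods name no *Gfap*-cre mouse line. At IM3h 0 of 9 members passed in edgeR, at a background of 1.66% of genes, 3 had an unadjusted p under 0.05 and DESeq2 called 1. *Tnfrsf12a* had a difference of −0.38 ± 0.74 (adjusted p = 0.895), an error too wide to call the changes equal. For *Ltbr* the difference was −1.21 ± 0.31 (adjusted p = 0.061), and it passed in DESeq2 (−1.27, adjusted p = 0.00767) and without IM3h *RiboTag* library 4 (−1.34, adjusted p = 0.0155). *Fas* had a difference of −1.40 ± 0.54 (adjusted p = 0.223). At IM24h 0 of 8 passed at a background of 0.537%, 2 had an unadjusted p under 0.05 and DESeq2 called 1, *Tnfrsf12a*, with −3.03 ± 0.85 in edgeR (adjusted p = 0.121). That interaction also passed in edgeR under the library total (−4.56, adjusted p = 0.0324) and without *RiboTag* IM24h library 4 (−3.67, adjusted p = 0.0398). *Tnfrsf1a* passed under the library total (−2.30, adjusted p = 0.0475). Without library 1 *Tnfsf12* passed (−4.20, adjusted p = 0.0246). At IM72h *Fas* (−4.76 ± 1.36, adjusted p = 0.0204) and *Ltbr* (−4.96 ± 1.43, adjusted p = 0.0217) were lower in *RiboTag* mRNA relative to the *ME*, 2 of 8 at a background of 21.1% of genes lower, a share near that of all genes. Both calls were lost without any single naïve *ME* library (adjusted p = 0.0563 to 0.0721), at changes of −4.59 to −4.95 for *Fas* and −4.88 to −5.15 for *Ltbr*. Without *RiboTag* IM72h library 3 the interaction passed for *Tnfrsf1a*, *Tnfrsf1b* and *Tnfrsf21* as well (−4.60, −6.17 and −2.15, adjusted p = 0.00168, 0.00158 and 0.0296), and without library 2 for *Tnfsf12* and *Tnfrsf21* (−6.92 and −3.07, adjusted p = 7.39e-05 and 0.0417). DESeq2 called 3 members at IM72h, *Tnfrsf21* among them (−2.20, adjusted p = 0.0101). *Tnfrsf21* also passed in edgeR under *Actb*, *Hsp90ab1* and *Rplp1* (−3.50, adjusted p = 0.0392) and under the library total (−4.53, adjusted p = 0.0135). Under the library total *Tnfrsf1a*, *Tnfrsf1b* and *Tnfrsf12a* passed as well (−4.19, −4.53 and −4.36, adjusted p = 0.0324, 0.048 and 0.049).

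**Figure D4:**
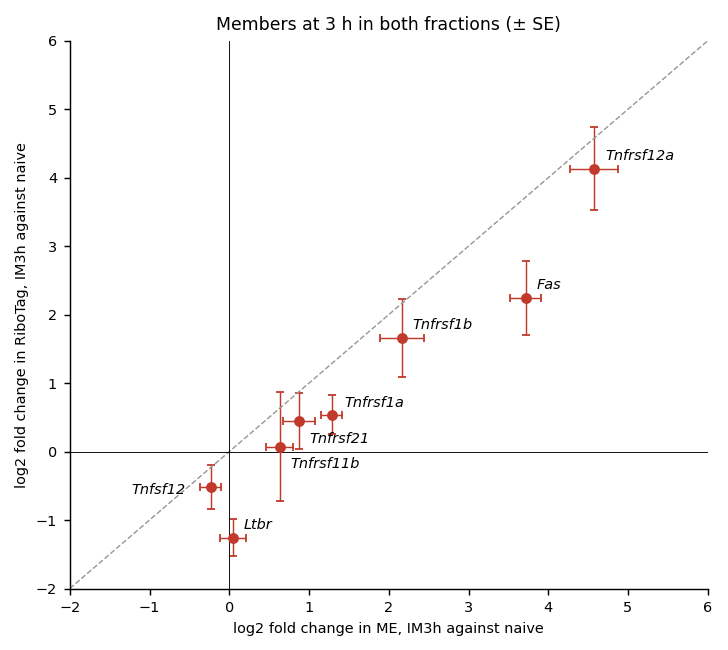
Log2 change at IM3h against naïve mice in the *ME* (horizontal axis) and in *RiboTag* mRNA (vertical axis) for the 8 members tested in both, with standard errors as bars and the line of equal change dashed. *Tnfrsf12a* lies near the line at 4.57 and 4.13, *Fas* below it at 3.71 and 2.24, and *Ltbr* at 0.05, whose sign turns under both other scalings, and −1.26.

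The rest of the pathway was read from lists of genes with a textbook role, whose counts stand beside the shares of all genes given above: in *RiboTag* mRNA 8.86% rising and 4.44% falling at IM3h, 0.497% passing at IM24h and 16.1% at IM72h, and in the *ME* 19.3%, 15.6% and 29.3% rising and 13.4%, 13.4% and 28.3% falling at the 3 times. Of other ligands of the superfamily, 0 of 4 tested passed in *RiboTag* mRNA at IM3h and 0 of 5 at IM24h, with 0 at an unadjusted p under 0.05 and 0 in DESeq2 at both times, and 1 of 4 fell at IM72h. That gene was *Eda*, the ligand ectodysplasin, with 4.27 to 8.58 CPM in naïve mice and no count at IM72h. In the *ME* 1 of 5, 3 of 7 and 3 of 6 rose at the 3 times and none fell. *Tnfsf13*, encoding the B cell factor APRIL, rose at IM72h from 2.54 to 4.74 CPM to 10.6 to 17.2 CPM (2.02 ± 0.27, adjusted p = 0.000102). *Tnfsf8* and *Ltb* rose at IM24h from at most 0.121 and 0.215 CPM in naïve mice to 0.801 to 2.92 CPM and 0.283 to 4.01 CPM (adjusted p = 0.0129 and 0.0216). Like other listed genes near 0 in naïve mice, they entered the test only through the libraries after IM.

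Of other receptors, 1 of 9 rose in *RiboTag* mRNA at IM3h, 0 of 9 passed at IM24h, with 0 at an unadjusted p under 0.05 and 0 in DESeq2, and 1 of 6 fell at IM72h. *Relt* was the one that rose, from 0 to 0.127 CPM in naïve mice to 0.187 to 11.6 CPM (adjusted p = 0.0213). *Ngfr*, the low-affinity neurotrophin receptor known from glia, was at 47.4 to 88.2 CPM in naïve mice and at 0 to 0.960 CPM at IM72h (adjusted p = 0.0146). In the *ME* 5 of 8 rose and 2 fell at IM3h, 2 of 11 rose and 3 fell at IM24h, and 11 of 15 rose and 3 fell at IM72h. Of all genes in the *ME*, 19.3%, 15.6% and 29.3% rose and 13.4%, 13.4% and 28.3% fell at these times. *Relt* rose there too, 14.5-fold at IM3h (3.86 ± 0.45, adjusted p = 0.00013), *Tnfrsf23*, a decoy receptor of TRAIL, 14.6-fold at IM24h (3.87 ± 0.70, adjusted p = 0.00278), and *Tnfrsf9*, the receptor of the *Tnfsf9* product, from at most 0.121 CPM to 0.528 to 2.27 CPM at IM72h (adjusted p = 0.00331).

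Of adaptors, NF-κB activators and their inhibitors, 9 of 29 rose and 1 fell in *RiboTag* mRNA at IM3h (median log2 change 0.65 beside −0.04 for all genes), 1 of 27 rose at IM24h and 2 of 27 fell at IM72h, the last a smaller share than the 16.1% of all genes that passed. *Nfkbia*, the inhibitor that NF-κB itself induces, rose 16.4-fold at IM3h (4.03 ± 0.38, adjusted p = 7.22e-05), and the kinase adaptors *Tab1* and *Traf6* fell at IM72h from 8.02 to 16.9 CPM and 6.89 to 10.8 CPM to at most 0.440 CPM each (adjusted p = 0.0332 and 0.0229). In the *ME* 16 of 28, 15 of 29 and 20 of 29 rose and 1, 1 and 2 fell. At IM3h *Tnfaip3*, encoding the ubiquitin editor A20, rose 23.0-fold (4.52 ± 0.46, adjusted p = 5.78e-05), *Birc3* 10.96-fold (3.45 ± 0.18, adjusted p = 8.77e-07) and *Nfkbia* 10.2-fold (3.36 ± 0.21, adjusted p = 2.17e-06).

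Of 10 genes of death signaling, 1 rose and 1 fell in *RiboTag* mRNA at IM3h, 0 of 8 passed at IM24h, with 0 at an unadjusted p under 0.05 and 0 in DESeq2, and 1 of 8 fell at IM72h. These counts were near the shares of all genes, 8.86% rising and 4.44% falling at IM3h, 0.497% passing at IM24h and 16.1% at IM72h. At IM3h *Cflar*, the inhibitor of caspase-8 activation, rose 2.27-fold (1.19 ± 0.27, adjusted p = 0.0126). *Casp8* had 4.07 to 11.7 CPM in naïve mice and no count at IM72h (adjusted p = 0.0181). In the *ME* 3, 3 and 4 of 10 rose and 1, 0 and 2 fell, at a background of 29.3% of genes rising and 28.3% falling at IM72h. *Casp8* rose there 4.99-fold at IM72h (2.32 ± 0.17, adjusted p = 1.62e-06), and the necroptosis genes *Ripk3* and *Mlkl* rose 7.06-fold and 4.36-fold at IM24h (2.82 ± 0.58 and 2.12 ± 0.69, adjusted p = 0.00522 and 0.0407).

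Of genes that TNF is known to induce, which other cytokines induce as well, 8 of 18 rose in *RiboTag* mRNA at IM3h (median log2 change 2.69), 0 of 15 passed at IM24h (4 at an unadjusted p under 0.05 and 2 in DESeq2) and 0 of 9 at IM72h (0 at an unadjusted p under 0.05 and 1 in DESeq2). The chemokine genes *Ccl2*, *Cxcl2* and *Cxcl1* rose most, by 6.68 ± 0.82, 5.25 ± 1.02 and 4.93 ± 0.76 on the log2 scale (adjusted p = 0.000372, 0.00602 and 0.00153). In the *ME* 18 of 19, 16 of 18 and 13 of 17 rose at the 3 times (medians 4.73, 2.73 and 2.19). Of the 22 genes listed, those with few counts in both groups were not tested. *Cxcl1* and *Cxcl5*, at 0.242 to 0.646 and 0 to 0.431 CPM in naïve *ME*, passed the filter only through the libraries after IM. These shares and medians thus depend on the filter, and the list was chosen with earlier results of these data known. The largest changes were those of *Cxcl5* at IM72h (8.55 ± 0.54, adjusted p = 7.59e-07), *Ccl2* at IM24h (7.55 ± 0.68, adjusted p = 9.85e-05) and *Cxcl1* at IM3h (7.36 ± 0.35, adjusted p = 5.06e-07). Several genes of these lists, among them *Nfkbia* and *Tnfaip3*, are also in the study's acute gliosis list.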

How the data were processed

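RNA of the small bowel *ME* was sequenced as total RNA and as *RiboTag* mRNA. Per the submitters' processing notes the authors used cutadapt, STAR and Partek with the genome build mm10. The deposited tables hold estimated counts per transcript (*RiboTag*, 3 tables) or per gene and transcript (*ME*), which the authors did not scale for library size. Between 31.0% and 67.0% of a table's values are fractional. The 4 tables of the authors' own comparisons hold fold changes and p-values and were not used. The labels name 30 samples and the tables hold 29 libraries, whose lines give the group but match no sample by name, so groups were mapped as a whole and a library's number is only its place among the sorted names.

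Counts of the transcripts that share a gene symbol were added and then rounded to whole numbers. The comparisons, 12 in all, were fitted by the two-sided quasi-likelihood test of edgeR (4.0.16, under R 4.3.3 and beside limma 3.58.1) after TMM and filterByExpr, on the groups compared, with Benjamini-Hochberg adjustment over all genes. Against a group without counts, a floor of 3 counts per library was used, and intervals are 95% exact intervals of the counts and cover counting error only. The prior count of log2 CPM was 2 and served only the correlations with *Tnfrsf12a*. The log2 changes of edgeR rest on its default prior count. All 10 members were named, of each other list the 3 genes per fraction with the largest called change, and the 3 genes most like *Tnfrsf12a*. Of the genes this rule names, 1 is not reported here. The members and lists were chosen with earlier results of these data known. DESeq2 1.42.0, other scalings, removal of the rRNA entries, no filter, a fit of all groups, the *ME* transcript table and leaving out single libraries were tried as alternatives. The scripts were tested on simulated data.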

Additional observations from a re-analysis of the deposited data

Results flagged for a closer look

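In groups of 4 libraries, 11 of 45 sets of member levels held a library far from the other 3, counting sets whose highest library had more than 3 counts. Chance gives about 1 in 20 for independent, normally distributed values. These sets share libraries and include libraries without a count, so that rate does not apply to them. The measure is the gap of the extreme library to its nearest neighbor over the range of the group, compared with Dixon's 95% critical value, and 9 of the 11 lay in *RiboTag* mRNA. At IM3h these were *Tnfrsf1a* in library 2 (54.7 CPM, next 43.5, ratio 0.848), *Tnfsf12* in library 1 (21.6 CPM, next 15.1, ratio 0.964) and *Fas* in library 4 (11.5 CPM, next 17.1, ratio 0.980). At IM24h it was *Tnfrsf11b* in library 3 (82.9 CPM, next 6.13, ratio 0.966).

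At IM72h library 3 stood apart for both TNF receptors, *Tnfrsf1a* (57.6 CPM, next 2.64, ratio 0.954) and *Tnfrsf1b* (28.8 CPM, next 0.880, ratio 0.969), library 2 for *Tnfsf12* (24.6 CPM, next 0.616, ratio 0.975) and *Ltbr* (7.48 CPM with no count in the others, ratio 1), and library 1 for *Tnfrsf11b* (5.70 CPM, next 0.960, ratio 0.901). Library 2 also had 161 CPM of summed glial markers against 953 to 1461 CPM in the others, and 6834 CPM of smooth muscle markers against 1872 to 2586 CPM. In these libraries AY036118 took 58.0% to 80.1% of the counts. In the *ME* they were *Tnfsf12* in IM24h library 4 (56.3 CPM, next 44.5, ratio 0.884) and *Tnfrsf21* in IM72h library 4 (21.3 CPM, next 31.7, ratio 0.830). In the latter glial markers summed to 162 CPM against 254 to 313 CPM in the others, and smooth muscle markers to 19621 CPM against 11207 to 13465 CPM.

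The change at IM72h differed between the fractions by the interaction term of edgeR for *Fas* (−4.76 on the log2 scale, adjusted p = 0.0204) and for *Ltbr* (−4.96, adjusted p = 0.0217), both lower in *RiboTag* mRNA relative to the *ME*, beside 21.1% of all genes. *Fas* had counts in 1 of 4 and *Ltbr* in 1 of 4 *RiboTag* libraries at that time. By the labels the *ME* libraries of naïve mice and of IM72h also differ in Cre line, which cannot be told apart from these differences.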

How the results depend on the processing

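Of 33 calls among the members over 12 comparisons, 18 held under every alternative tried, 15 were lost under at least 1, and none turned its direction. Scaling by library total moved the median log2 change of all genes by −2.08 to 0.73 and scaling by *Actb*, *Hsp90ab1* and *Rplp1* by −1.67 to 0.09 relative to TMM, and of 22 changes of sign under these scalings 1 remained relative to the median of all genes. No paired analysis was possible because the lines of the tables carry no replicate numbers. *RiboTag* libraries at IM24h and IM72h held fewer counts outside AY036118, and whether this set the number of calls was not tested.

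The number of members called in *RiboTag* mRNA at IM3h was 0 with all groups in 1 fit, against 3. With DESeq2 it was 1 in place of 0 in the *RiboTag* comparisons of IM24h and of IM72h with naïve mice, of IM24h with IM3h, and in the interactions at IM3h and IM24h, and 4 in place of 2 between the naïve fractions. In the interaction at IM72h the number with DESeq2 was 3 in place of 2. With scaling by library total it was 2 at IM72h in *RiboTag* mRNA, 8 in place of 5 at IM72h in the *ME*, 2 in the interaction at IM24h and 6 in place of 2 in that at IM72h. With scaling by *Actb*, *Hsp90ab1* and *Rplp1* it was 2 at IM72h in *RiboTag* mRNA, 5 in place of 8 at IM24h in the *ME* and 0 between the naïve fractions, where 1 fit of all groups also gave 0. Without the filter on low counts it was 1 between *RiboTag* IM24h and IM3h. Leaving out single libraries gave 1 to 4 calls in *RiboTag* mRNA at IM3h, 0 to 2 at IM72h, 1 to 6 between the naïve fractions, and 0 to 1, 0 to 1 and 0 to 5 in the interactions at IM3h, IM24h and IM72h. The cause of these shifts was not tested.

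The following log2 changes turned their sign, none of them called in the fit reported. Under the library total these were *Tnfrsf11b* at IM3h (−0.19), *Tnfrsf1a* at IM24h (−0.75) and *Tnfrsf1b* at IM72h (−1.36) in *RiboTag* mRNA, *Tnfrsf1b* between IM24h and IM3h (−0.70), *Ltbr* at IM3h (−0.23) and *Tnfsf12* at IM24h and IM72h (0.62 and 0.43) in the *ME*, *Tnfrsf1b* and *Tnfsf12* between the naïve fractions (0.32 and 0.15), and *Tnfrsf11b* in the interactions at IM24h and IM72h (−0.64 and −1.89). Under *Actb*, *Hsp90ab1* and *Rplp1* they were *Tnfrsf11b* at IM3h (−0.56), *Tnfrsf1a* and *Fas* at IM24h (−1.38 and −0.21) and *Tnfrsf1b* at IM72h (−0.31) in *RiboTag* mRNA, *Tnfrsf1b* between IM24h and IM3h (−0.98), *Ltbr* at IM3h and IM72h (−0.37 and −0.34) and *Tnfrsf1a* at IM72h (−0.39) in the *ME*, *Tnfrsf21* between IM72h and IM24h (−0.014), and *Tnfrsf11b* in the interactions at IM24h and IM72h (−0.37 and −0.92). *Tnfrsf1b* between *RiboTag* IM24h and IM3h was −0.053 without the filter, −0.015 without rRNA entries and −0.058 with all groups in 1 fit, and *Ltbr* at IM3h in the *ME* was −0.0042 in the last. Without both *RiboTag* IM24h libraries rich in AY036118, chosen after seeing the data, *Tnfrsf1a* was −0.076, *Tnfrsf11b* −0.13 and *Tnfrsf21* 0.37 at IM24h, and *Tnfrsf11b* −0.18 against IM3h and −1.04 in the interaction.

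Leaving out single libraries also turned the sign of *Tnfrsf11b* at IM3h (−0.42 to 0.50), *Tnfrsf1a* and *Tnfrsf21* at IM24h (−0.13 to 0.51 and −0.68 to 0.21) and *Tnfrsf1b* and *Tnfrsf12a* at IM72h (−3.48 to 1.56 and −1.09 to 0.17) in *RiboTag* mRNA. The same held for *Tnfrsf1a* and *Tnfrsf1b* between IM24h and IM3h (−0.61 to 0.031 and −0.31 to 0.16), *Ltbr* at IM3h and *Tnfsf12* at IM24h in the *ME* (−0.062 to 0.15 and −0.11 to 0.049) and *Fas* between the naïve fractions (−0.63 to 0.38). In the interactions these were *Tnfrsf12a* and *Tnfsf12* at IM3h (−0.99 to 0.057 and −0.34 to 0.0055) and *Tnfrsf11b* at IM24h and IM72h (−0.84 to 1.92 and −1.49 to 0.51). *Tnfrsf1b* at IM72h turned without library 3 and *Tnfrsf11b* in the interaction at IM24h without IM24h library 3.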
